A study of Sus scrofa with 20 samples.

Results

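The loci described here are transcription units that were assembled from the RNA of pig backfat and carry no Ensembl gene identifier in the deposited count table, yet were well expressed. A locus was taken where its identifier field was empty and its mean over the 20 libraries was 5 CPM (counts of the locus per 1000000 counts of the library) or more. Of 23483 loci, 10776 had no identifier, and 1358 of these reached the minimum. XLOC_042132, the sole one of them left out by name, was set aside, which left 1357 unnamed loci (12.6% of the loci without an identifier). They were chosen by this mean CPM over all 20 libraries, so their levels are given as a description with no test. For comparison, 9286 loci with an identifier reached the same minimum.

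Backfat is the layer of white fat beneath the skin of the back. The animals were 10 female and 10 castrated male Italian Large White pigs of 150 to 160 kg body weight, aged 233 to 250 days at slaughter, kept in shared housing on 1 diet. The labels name no genotype, transgene or drug for either group, and no intact male is among the samples, so sex and castration cannot be told apart. Polyadenylated RNA was sequenced from each animal, and a library is named here by its labelled sex and a number in deposit order.

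When reads are assembled into transcripts without relying on an annotation alone, loci appear that match no annotated gene. Such loci are known to include long noncoding RNAs, protein-coding genes missing from a draft annotation, detached ends of neighbouring genes and transcribed copies of other genes. The files give the unnamed loci no sequence, position or reading frame, so none of them is assigned to any of these classes here, and each is described by its level, its spread, its isoforms and the annotated genes whose levels it followed.

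Total counts ran from 25754778 to 51248122 per library, so 1 CPM rested on 25.8 to 51.2 counts and each unnamed locus on at least 3649 counts over the 20 libraries. The tissue expressed genes of fat cells, with a mean of 15517 CPM for SCD (stearoyl-CoA desaturase) and 1234 CPM for the locus that joins PLIN1 (perilipin, the coat of the fat droplet) with PEX11A. No locus could be matched by symbol to LEP, ADIPOQ, FABP4, LPL or CD36. Castrated male 1 stood apart, with SCD at 288 CPM against 2597 to 28244 in the other libraries and the macrophage receptor MRC1 at 187 CPM against 21.4 to 169. The mitochondrial share was taken as the counts at the loci of 12 protein-coding genes of the mitochondrial genome. These were ND1 to ND6, COX1 to COX3, CYTB, ATP6 and ATP8. The share was lowest in castrated male 1, at 8.49%, and highest in castrated male 10, at 26.34%. At the 18 loci that passed the sex test when female 10 and castrated male 10 were left out, the library labelled female 10 was nearer the castrated male mean at 16 and the library labelled castrated male 10 nearer the female mean at 17. Both go against their labels there, so the sex comparison is given with and without them.

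Together the unnamed loci held 3.55 ± 0.265% of all counts (SD, n = 20), lowest in castrated male 10 (3.161%) and highest in female 4 (4.124%). The share was 3.59 ± 0.287% in females and 3.5 ± 0.25% in castrated males (SD, n = 10 each). They made up 79% of the counts of all loci without an identifier. Expression was concentrated: 585 of the 1357 lay between 5 and 10 CPM, 368 between 10 and 20 CPM, and 261 between 20 and 50 CPM. A further 89 lay between 50 and 100 CPM, and the 54 at 100 CPM or more held 33.2% of the unnamed counts. Their median was 11.7 CPM, against 35 CPM for the loci with an identifier, and 2 of them were among the 100 most abundant loci of the tissue.

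XLOC_010031 was the most abundant of them. It spanned 386 to 1915 CPM among the females (median 935) and 393 to 1755 CPM among the castrated males (median 1077), so the sexes overlapped almost completely. Its mean of 1034 ± 406 CPM (SD, n = 20) placed it at rank 85 of all loci. Female 10 was highest and female 3 lowest. XLOC_039988 followed at 963 ± 310.4 CPM, with 696 to 1608 CPM among the females (median 1012) and 288 to 1097 CPM among the castrated males (median 888). Its lowest library was castrated male 1, and without that animal the lowest value was 657 CPM.

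**Figure D1:**
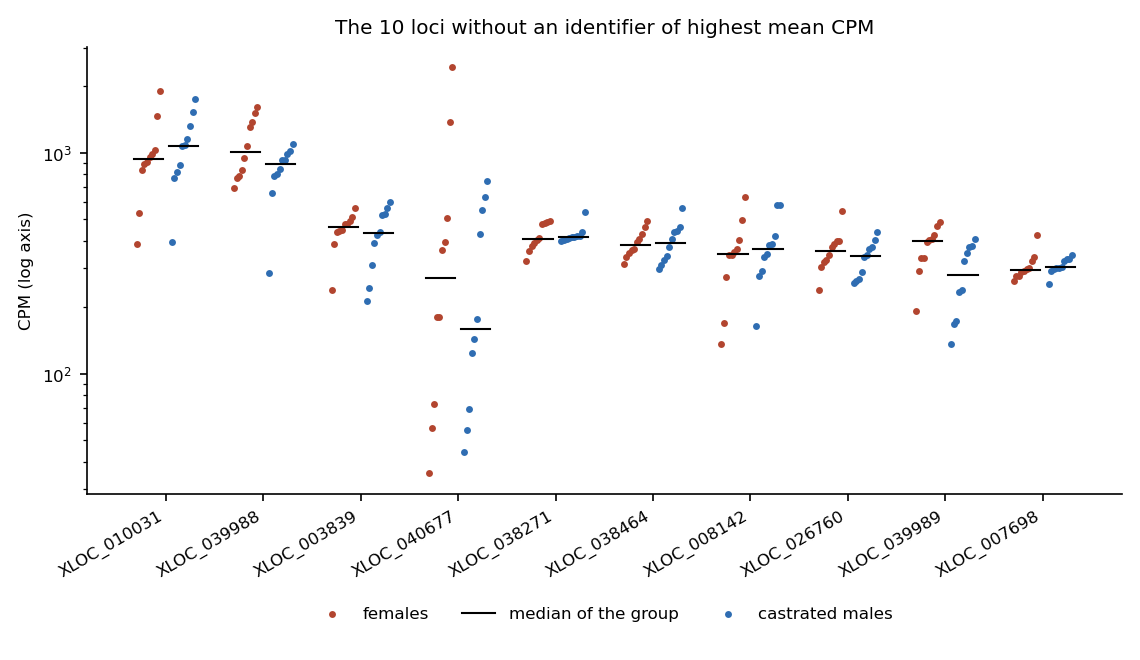
CPM of each of the 20 libraries (log axis) for the 10 unnamed loci of highest mean CPM, females in red and castrated males in blue, with the median of each group as a black bar. The sexes overlap at every locus, and XLOC_040677 spans 35.5 to 2441 CPM while XLOC_007698 stays between 256 and 426 CPM.

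The next loci differed far more in spread than in mean. XLOC_003839 averaged 437 ± 111 CPM (SD, n = 20) and ranged 2.82-fold. XLOC_040677 averaged 429 ± 577 CPM with a 68.7-fold range, from 35.5 CPM in female 1 to 2441 CPM in female 4. XLOC_038271 averaged 424 ± 50.4 CPM and ranged 1.66-fold. Loci of almost equal mean thus included a nearly constant transcript and one whose mean was carried by female 4 (2441 CPM) and female 7 (1383 CPM), with at most 748 CPM in any other animal. XLOC_038464 (395 ± 69 CPM), XLOC_008142 (365 ± 134 CPM), XLOC_026760 (349.9 ± 72.4 CPM), XLOC_039989 (327 ± 104 CPM) and XLOC_007698 (309 ± 36.9 CPM) completed the 10 highest, which together held 14.2% of the unnamed counts.

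Levels per length were read from the deposited FPKM (Cufflinks fragments for each kilobase of transcript, adjusted for library depth). By mean FPKM, XLOC_004491 was highest at 2808 ± 508, followed by XLOC_008142 at 2434 ± 975, XLOC_010031 at 2337 ± 882, XLOC_036579 at 1996 ± 566 and XLOC_038510 at 1128 ± 360.4 (SD, n = 20). The ratio of mean CPM to mean FPKM has the unit of kilobases and was read as the apparent length of the locus. It was 0.0362 kb for XLOC_004491, 0.0712 kb for XLOC_036579 and 0.15 kb for XLOC_008142. The first 2 values are shorter than a read of 100 bases and cannot be true lengths, and since the ratio has FPKM in its denominator a high FPKM lowers it by construction. The median apparent length was 2.84 kb for the unnamed loci and 2.99 kb for the identified loci, and 161 unnamed loci (11.9%) were under 0.5 kb against 3.44% of the identified loci. Counts and FPKM moved together at most of them. The correlation of log2 CPM with log2 FPKM over the libraries had a median of 0.95 (n = 20 libraries, sharing reads), against 0.84 for the identified loci. It was under 0.8 for 17.2% of the unnamed and 41.6% of the identified loci.

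Spread between animals was measured as the residual SD, the standard deviation of log2 CPM after each sex's mean was removed. Its median was 0.348 over the unnamed loci and 0.274 over the identified loci. Within 1 range of level the medians were 0.394 against 0.375 at 5 to 10 CPM and 0.334 against 0.311 at 10 to 20 CPM. They were 0.289 against 0.25 at 20 to 50 CPM and 0.299 against 0.238 above 50 CPM. A residual SD above 1 was found in 60 unnamed loci (4.42%) and in 1.42% of the identified loci. The first count was 49 (3.61%) without castrated male 1. Unlike the medians by range, the shares above 1 were not matched for level. Loci are not independent replicates, so no test was made of these differences.

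**Figure D2:**
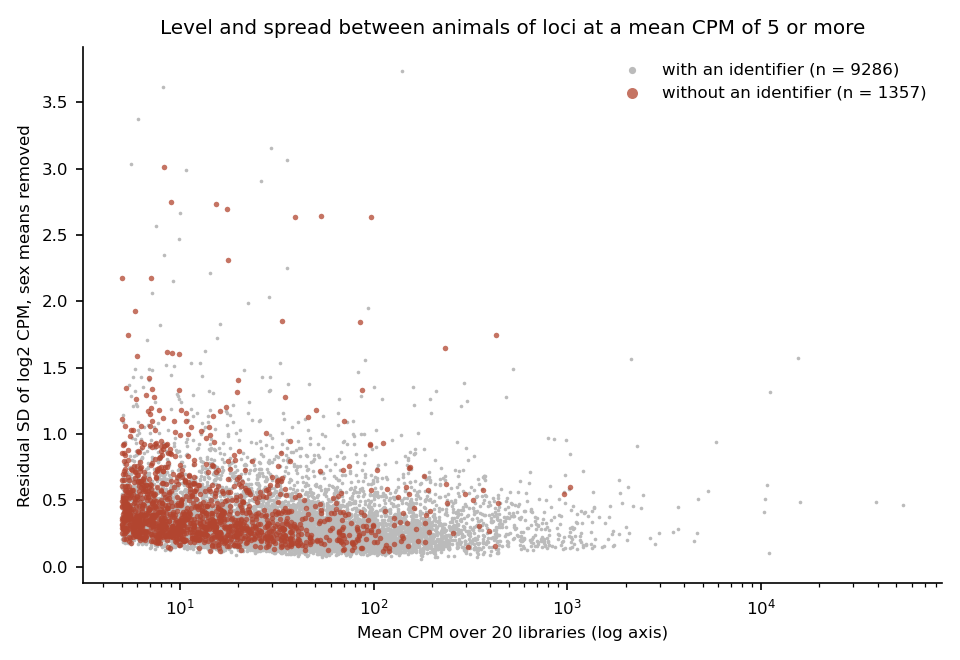
Mean CPM over the 20 libraries (log axis) against the residual SD of log2 CPM for the 9286 loci with an identifier (grey) and the 1357 without (red). Most unnamed loci lie under 50 CPM, and 60 of them rise above a residual SD of 1.

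The steadiest unnamed loci were XLOC_040359, XLOC_027175, XLOC_008636 and XLOC_011013, with residual SDs of 0.114 to 0.121. XLOC_040359 held 100.3 to 148 CPM in all 20 animals, a 1.47-fold range. XLOC_008636 held 94 to 124 CPM in 19 animals and 149.8 CPM in castrated male 1. The animals thus differed little at these loci, whether the level was near 120.4 CPM (XLOC_040359) or near 14.4 CPM (XLOC_011013).

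At the other end stood loci that were near 0 in some animals and clearly expressed in others. In 12 unnamed loci (0.884%) the lowest library was under 0.5 CPM and the highest at 10 CPM or more, against 23 identified loci (0.248%). These shares were not matched for level, whose median was 11.7 CPM over the unnamed and 35 CPM over the identified loci. XLOC_014310 was at 53.6 CPM in female 2, 57.7 CPM in female 6 and 50.9 CPM in castrated male 5, and between 0.0357 and 0.49 CPM in the other 17 libraries, with no value in between. XLOC_011840 was at 83.1 CPM in female 4, 66.2 CPM in castrated male 4 and 15.6 CPM in female 10, and at or under 3.92 CPM elsewhere. Both had the 2 highest residual SDs of all unnamed loci, 3.01 and 2.75.

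XLOC_025549 showed the reverse pattern, expressed in most animals and nearly missing in a few. It was between 0.0229 and 0.136 CPM in females 1, 3, 4 and 6 and between 4.78 and 31.3 CPM in the other 16 libraries. XLOC_004584 had a count of 0 in female 3 and in castrated male 2, which allows up to 0.0688 and 0.0918 CPM (3 counts of the library total), and 9.63 to 33 CPM in the other 18 animals. XLOC_034393 was at 0.0306 to 0.11 CPM in castrated males 2, 4 and 7 and at 3.76 to 16.8 CPM in the other 17. XLOC_039066 was at 0.0254 CPM in female 8 alone and at 4 to 14.6 CPM in the other 19.

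**Figure D3:**
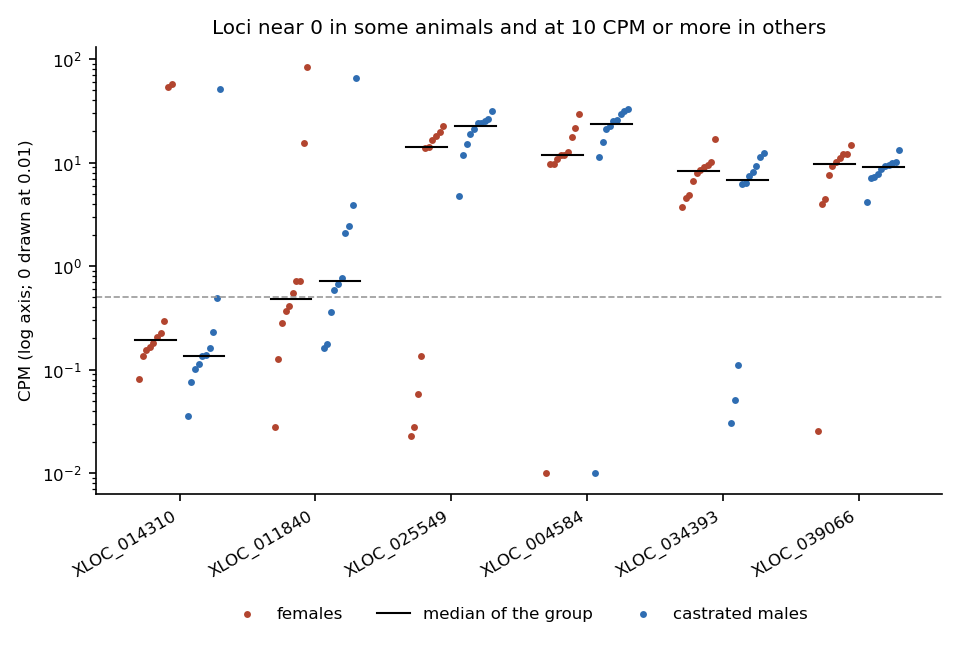
CPM by library (log axis, a count of 0 drawn at 0.01) of the 6 unnamed loci with the widest log2 range among those under 0.5 CPM (dashed line) in some animals and at 10 CPM or more in others, females in red, castrated males in blue, group medians as bars. Values fall into separate high and low sets at 5 of the 6 loci, and XLOC_011840 fills the range between.

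The sets of low animals at these 4 loci were different, although female 3 was low at 2 of them and castrated male 2 at 2. The low libraries had total counts of 32670992 to 51248122, so the shallowest libraries of the series were not among them. The pattern of XLOC_025549 had a close companion among the named genes. NKAP, which encodes a nuclear protein that activates NF-kappa-B and binds RNA, correlated with it at r = 0.91 (Spearman 0.93, n = 20 libraries, sex means removed). NKAP stood at 13.2 to 14.5 CPM in the 4 females that nearly lacked XLOC_025549 and at 15.4 to 19.2 CPM in the other 16 libraries. The handling of reads that match several places in the genome is not given in the sources used here, so levels of a locus that is a near-identical copy of a gene are uncertain, and whether any pair named here shares reads was not tested. XLOC_014310 followed BAG1, an HSP70 co-chaperone, at r = 0.74 but at a Spearman correlation of 0.3, all of its high values being those of the 3 libraries above. For XLOC_004584 the most similar gene was MED7, a Mediator subunit, at r = 0.69, which fell to 0.38 without the 2 libraries farthest from the median.

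Cufflinks isoforms could be tied to 1347 of the 1357 loci. They held 3091 isoforms, none of which carried a nearest reference transcript, against 10166 of 39472 isoforms of the identified loci. The unnamed loci were chosen for lacking an identifier, which may fix that count in advance, so it is not read as a trait of them. A lone isoform was found at 729 unnamed loci (54.1%) against 13% of the identified loci, and 5 or more at 11.8% against 39.2%. At 5 to 10 CPM, where both groups are lowly expressed, the shares with a lone isoform were 56% and 20%. The shares thus stayed apart within this range of level, a difference between loci that was not tested.

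Among the 618 loci with 2 isoforms or more, the most abundant isoform took a median of 65.8% of the locus FPKM. It took 80% or more at 186 loci and less than 50% at 173. XLOC_003839 had 7 isoforms with 96% of its FPKM in 1 of them, from 90.4% to 98.1% over the libraries. XLOC_008142 split over 8, with its leading isoform at 37.4% (34.7% to 48%). XLOC_036668 had the most isoforms, 19, at 35.2 ± 8.96 CPM, followed by XLOC_008641 with 17, XLOC_034612 with 16 and XLOC_006046 with 15. In these 4 the leading isoform averaged 16% to 29.5%, and in XLOC_006046 it moved from 0% to 32.2% between animals, at a locus of 9.18 CPM of which 0 isoforms averaged 0.5 FPKM.

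Locus numbers mostly follow the genome. Each locus with a gene placed in the Sscrofa11.1 RefSeq annotation was compared with the next such locus by number, whatever the gap in numbers. The 2 genes lay on the same chromosome in 97.4% of cases. Of those steps 91.8% were in rising order and 83.5% under 1 Mb. The named genes on either side of a number are thus a guide to the surroundings of an unnamed locus where both are of 1 chromosome, and not elsewhere. By that measure 663 of them lay between 2 genes of 1 chromosome at most 20 numbers apart. Another 311 lay in runs of over 200 numbers with no placed gene, and 383 lay elsewhere. A long run is defined by number alone and gives no distance from a gene, nor does a gap between numbers give a distance. Of the loci among genes 22.6% had a lone isoform, of those in long runs 96.8%, and of the rest 73.5%. The part of the numbering itself in these shares was not tested, so they are not read as a difference by location. XLOC_010031, the most abundant, lay in a long run, whereas XLOC_003839 lay between BPNT1 and DUSP10 and XLOC_008142 between EIF4A2 and MASP1. XLOC_026760 lay between BLVRB and ITPKC and XLOC_007698 between AZI2 and STT3B.

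Covariation was described by Pearson's r over the 20 libraries, on log2 CPM with sex means removed, against 6256 loci with a symbol at 10 CPM or more and against the mean z-score of lists of genes. The libraries are of bulk tissue, in which fewer cells of a type and less RNA per cell cannot be told apart, and these r are a description with no test. The best r with a named gene had a median of 0.83 over the unnamed loci, against 0.85 over the identified loci with a symbol. It reached 0.9 for 201 unnamed loci (14.8%) and 19.3% of the identified loci. Of the 23 lists, 19 had at least 4 members to score, and 172 unnamed loci (12.7%) reached r = 0.7 with 1 or more of them, against 18.6% of the identified loci. Without castrated male 1 the count was 143. The identified loci include the genes of the lists, which enter the scores, so their shares are raised by construction. A lower share of unnamed loci is therefore not read as a trait of them. Shares of identified loci were computed only for r of 0.7 or more with all 20 libraries. Counts at -0.7 or less, and counts without castrated male 1, thus have no background here. They are not read as a trait of the unnamed loci.

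**Figure D4:**
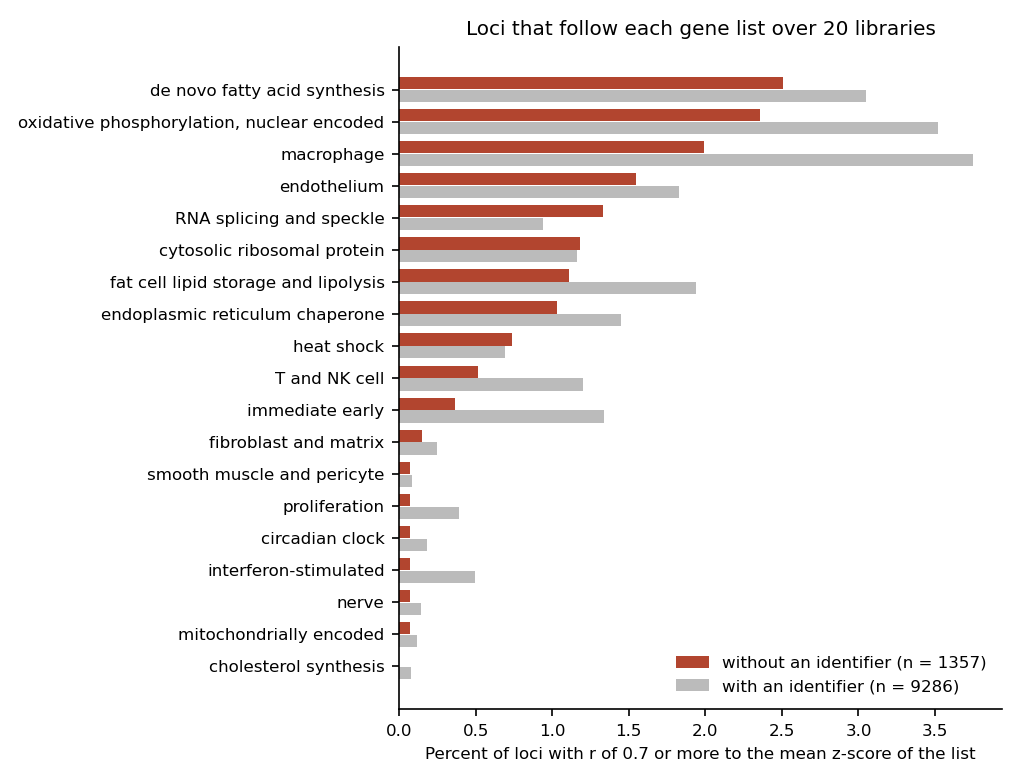
Percent of the 1357 unnamed loci (red) and of the 9286 identified loci (grey) whose log2 CPM reached r = 0.7 over the 20 libraries with the mean z-score of each gene list. Fatty acid synthesis (2.51% and 3.05%) and nuclear-encoded oxidative phosphorylation (2.36% and 3.52%) lead among the unnamed loci, macrophage genes (3.75%) among the identified loci. The identified loci include the genes of the lists themselves, which raises the grey bars.

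Over all 20 libraries the fat synthesis and energy lists had the most followers, but without castrated male 1 the splicing list had most (22), followed by endothelium (20). With the de novo fatty acid synthesis list (11 genes scored, such as FASN and ACACA, which build fatty acids from acetyl-CoA) 34 unnamed loci reached 0.7 (2.51%, identified loci 3.05%), and 3 reached -0.7. With nuclear-encoded oxidative phosphorylation (12 genes, the respiratory chain and ATP synthase) the counts were 32 (2.36%, identified loci 3.52%) and 3. Leaving out castrated male 1, fatty acid synthesis had 19 loci at 0.7 or more and 10 at -0.7 or less, and oxidative phosphorylation 11 and 2. XLOC_026544 followed fatty acid synthesis most closely, at r = 0.88 (0.8 without that animal). It spanned 1.13 to 10.3 CPM among the females and 0.62 to 8.04 CPM among the castrated males, castrated male 1 being lowest. Its most similar genes were the joined locus of ME1 (malic enzyme, a source of NADPH) and PGM3 at r = 0.94, SCD at r = 0.92 and GSS (glutathione synthetase) at r = 0.92.

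XLOC_038503, XLOC_038510 and XLOC_035831 followed both lists. XLOC_038503 held 83.9 to 202 CPM among the females and 52.4 to 204 CPM among the castrated males, with castrated male 1 lowest, and reached r = 0.9 with oxidative phosphorylation. It was most like TALDO1, the transaldolase of the pentose phosphate pathway (r = 0.96), and the complex I subunits NDUFV1 (r = 0.96) and NDUFA10 (r = 0.95). XLOC_038510, 7 numbers away and at 298 ± 95.8 CPM, was most like TALDO1, NDUFV1 and the complex III subunit UQCRC1, each at r = 0.92. XLOC_035831 (19.5 ± 5.35 CPM) was most like TALDO1 at r = 0.92. XLOC_038503 and XLOC_038510 ran opposite to the endothelium list, at r = -0.74 and -0.76 (-0.68 and -0.7 without castrated male 1). Castrated male 1 was the lowest library of all 3 loci. In the order named above, their r with fatty acid synthesis was 0.85, 0.86 and 0.84, and 0.73, 0.77 and 0.7 without that animal. With oxidative phosphorylation it was 0.9, 0.87 and 0.88, and 0.84, 0.8 and 0.8 without it.

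The fat storage and lipolysis list (13 of 22 genes had a locus, among them PLIN1, LIPE and PPARG) had 15 followers (1.11%, identified loci 1.94%) and 2 loci at -0.7, and 9 and 7 without castrated male 1. XLOC_012665 reached r = 0.81 and ran from 7.02 CPM in female 3 to 42.3 CPM in female 10. It was most like LGALS12, a galectin of the fat droplet, at r = 0.9. XLOC_035214 (99.8 ± 20.5 CPM) reached r = 0.8 and was most like the joined locus of PLIN1 and PEX11A at r = 0.81. The most abundant unnamed locus was in this group too: XLOC_010031 reached r = 0.74 with the list.

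XLOC_010031 and XLOC_008142 shared their closest genes. XLOC_010031 was most like TMEM120B, a nuclear envelope protein of fat cells (r = 0.91), DDB1, an adaptor of CUL4 ubiquitin ligases (r = 0.9), and PC, pyruvate carboxylase (r = 0.89). XLOC_008142 was most like RETSAT, retinol saturase (r = 0.93), DDB1 (r = 0.93) and PC (r = 0.89). RETSAT ran from 132 CPM in female 7 to 668 CPM in female 10, and XLOC_008142 from 136 CPM in female 3 to 632 CPM in female 10. The 2 loci correlated with each other at r = 0.98, and their CPM ratio stayed between 2.39 and 3.19 over the 20 libraries although the levels ranged 4.95-fold and 4.65-fold. Both ran opposite to the locus with the identifier of the small nucleolar RNA SNORD93 (mean 10 CPM), at r = -0.88 and -0.85. Whether that locus measures the small RNA itself was not tested.

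XLOC_003839, the third in abundance, was most like MTARC2, a molybdenum enzyme of the outer mitochondrial membrane, at r = 0.9, and the next gene reached only 0.76. MTARC2 lies 4 numbers from it and averaged 159 ± 43.4 CPM. Both were low in female 9, with 239.7 CPM for the locus and 88.7 CPM for the gene, and in castrated male 5, with 214 and 97.4 CPM. Castrated male 1 was low in both as well, at 244 and 108 CPM.

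Translation genes were among those that 3 abundant loci followed. With the cytosolic ribosomal protein list, of which 5 of 16 genes had a locus, 16 unnamed loci (1.18%, identified loci 1.16%) reached 0.7 and 25 reached -0.7 (11 and 13 without castrated male 1). XLOC_004491 (76.6 to 150.5 CPM, highest in castrated male 5) reached r = 0.81 and was most like the ribosomal protein genes RPS3A (r = 0.89), RPS13 (r = 0.87) and RPL38 (r = 0.87). XLOC_038271, also at r = 0.81, was most like COMMD1 and the mitochondrial ribosomal protein gene MRPL13. XLOC_038464 (r = 0.73) was most like LSM3, a component of RNA-processing rings, at r = 0.91, and VBP1, a prefoldin subunit, at r = 0.9. Castrated male 5 was the highest library of all 3. XLOC_038464 ran opposite to the macrophage list more strongly than it followed the ribosomal list, at r = -0.82 (-0.74 without castrated male 1), and XLOC_004491 was at r = -0.71 (-0.64 without it). The part of macrophage RNA in these relations was not tested.

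Immune cell genes had followers too. The macrophage list (9 genes, such as CD68 and CSF1R) had 27 followers at 0.7 (1.99%, identified loci 3.75%) and 43 unnamed loci at -0.7, and 15 and 21 without castrated male 1. XLOC_038589 spanned 1.81 CPM (female 7) to 45.7 CPM, where castrated male 1 was highest and castrated male 6 next at 16 CPM. It was most like GRN (progranulin) at r = 0.94 and the lysosomal genes CTSA and DNASE2, each at r = 0.92. XLOC_037990 was also highest in them, with 39.6 and 28.9 CPM in those 2 animals, and was most like MRC1 (r = 0.94) and the integrin gene ITGAM (r = 0.93). Without castrated male 1 both kept r = 0.87 with the list.

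XLOC_040270 and XLOC_028450 followed the T and NK cell list (r = 0.81 and 0.8), which had 7 followers in all (0.516%, identified loci 1.2%). Their closest genes, however, were ones that myeloid and plasmacytoid cells also express, IRF5 (r = 0.91) for the first and PLD4 (r = 0.86) for the second, and both also followed the macrophage list (r = 0.84 and 0.72). XLOC_008052 (12.5 to 41.6 CPM) was the sole follower of the interferon-stimulated list (0.0737%, identified loci 0.495%), at r = 0.74. It was most like IFIH1, a sensor of viral RNA, at r = 0.79. Without castrated male 1 its r with the list was 0.69. Lists for B cells, skeletal muscle, keratinocytes and red cells had too few members to score.

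Vessel and matrix genes came next. The endothelium list (7 genes) had 21 followers (1.55%, identified loci 1.83%) and 12 loci at -0.7, and 20 and 1 without castrated male 1. XLOC_039688 (42 to 104 CPM) reached r = 0.92 with it, with or without that animal, and was most like TEAD2 (r = 0.88), EPAS1, the hypoxia-inducible factor of endothelium (r = 0.86), and ARHGEF15 (r = 0.86). These are the closest genes with a symbol: the identified locus XLOC_039686, 2 numbers away and with no matched symbol, was closer at r = 0.98, and was at r = 0.84 with XLOC_039691. XLOC_039059 (23.5 to 55.1 CPM) was most like the receptor gene GPRC5B at r = 0.93. XLOC_039691, 3 numbers from XLOC_039688, followed the nerve list at r = 0.77 but the endothelium list at 0.8, and its closest genes were ARHGEF15 and TEAD2.

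XLOC_008908 was the follower of the smooth muscle and pericyte list (0.0737%, identified loci 0.0862%), at r = 0.81. It held 8.7 to 14.4 CPM among the females and 6.21 to 14 CPM among the castrated males and was most like MYH11, the myosin heavy chain of smooth muscle, at r = 0.91. MYLK, the kinase that activates this myosin, was next at r = 0.85 and lies 2 numbers away. The fibroblast and matrix list had 2 followers (0.147%, identified loci 0.248%), XLOC_039989 at r = 0.8 and XLOC_034529 at r = 0.75. Without castrated male 1 these r were 0.76 and 0.66. XLOC_039989 (137 to 485 CPM) was most like the collagen gene COL5A1 (r = 0.84), ANXA6 (r = 0.81) and the collagen gene COL6A2 (r = 0.81). XLOC_039988, its neighbour by number and the second most abundant unnamed locus, was most like COL1A2 at r = 0.89. Without castrated male 1, which had the lowest level of both XLOC_039988 (288 CPM) and COL1A2 (1352 CPM), that r was 0.75.

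Stress-response genes were the company of several highly variable loci. The heat shock list (8 genes) had 10 followers at 0.7 (0.737%, identified loci 0.689%), and XLOC_040677 and XLOC_036009 were among the loci that reached it, at r = 0.8 and 0.82. Both were most like DNAJB1, the HSP40 partner of HSP70 that rises when proteins misfold, at r = 0.91 and 0.88. DNAJB1 was lowest in castrated male 8 (51.8 CPM) and highest in female 4 (1572 CPM). XLOC_036009 spanned 21.7 to 1128 CPM among the females (median 150.3) and 29.7 to 442 CPM among the castrated males (median 95.7). Female 4 was the highest library of all 3. The 2 loci, 4668 numbers apart, correlated at r = 0.99, and their ratio held between 0.427 and 0.811.

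A second set of 3 loci varied still more. XLOC_036931 had 1.12 CPM in castrated male 3, its lowest library, and 421 CPM in female 4, its highest, a ratio of 378. XLOC_037008 spanned 0.786 to 305 CPM (388-fold) and XLOC_039006 2.31 to 717 CPM (311-fold), with the same lowest and highest animals. The 3 were the closest of all 920046 pairs of unnamed loci, each pair at r = 1 after rounding to 2 decimals and with a Spearman correlation of 0.99 or 1. XLOC_036931 stood at a median of 1.39 times the level of XLOC_037008, with a coefficient of variation of the ratio of 8.72% over the libraries. Their most similar gene was again DNAJB1, at r = 0.89, 0.89 and 0.9. None of the 3 reached 0.7 with the heat shock list as a whole. Opposition to the macrophage list was shared by both sets, at r = -0.72 to -0.74 for these 3, -0.78 for XLOC_040677 and -0.76 for XLOC_036009.

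XLOC_034233 and XLOC_014031 were the closest followers of the heat shock list, at r = 0.83 each, and XLOC_014031 ran opposite to the macrophage list at r = -0.79. XLOC_034233 was at 398 CPM in female 7 and between 40.1 and 162 CPM in the other 19 animals. It was most like CKS2, a cyclin-dependent kinase subunit (r = 0.92), and the HSP90 co-chaperone genes CHORDC1 (r = 0.91) and PPID (r = 0.9). Its leading animal, female 7, thus differed from that of the DNAJB1-like loci, female 4, which had 119 CPM here. The endoplasmic reticulum chaperone list (9 genes) had 14 followers (1.03%, identified loci 1.45%). XLOC_034311 (3.39 to 24.2 CPM) led them at r = 0.84 and was most like HNRNPU, an RNA-binding protein (r = 0.81), and the chaperone genes HYOU1 (r = 0.8) and HSP90B1 (r = 0.79).

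XLOC_038632 followed the immediate early genes, transcription factors that are switched on within minutes of a stimulus, at r = 0.88. Among the females it was lowest in female 7 (6.53 CPM) and highest in female 9 (221 CPM), with a median of 71.8. Among the castrated males it was lowest in castrated male 10 (10.4 CPM) and highest in castrated male 4 (269 CPM), with a median of 64.8. EGR1 was its most similar gene at r = 0.94 and FOS the next at r = 0.91. FOS was likewise lowest in female 7, at 689.6 CPM, and highest in female 9, at 3994 CPM, while EGR1 was lowest in castrated male 10, at 527 CPM, and highest in female 9, at 1658 CPM. The locus thus ranged 41.2-fold where these 2 genes ranged far less. The list had 5 followers in all (0.368%, identified loci 1.34%) and 26 unnamed loci at -0.7, and 9 followers without castrated male 1.

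**Figure D5:**
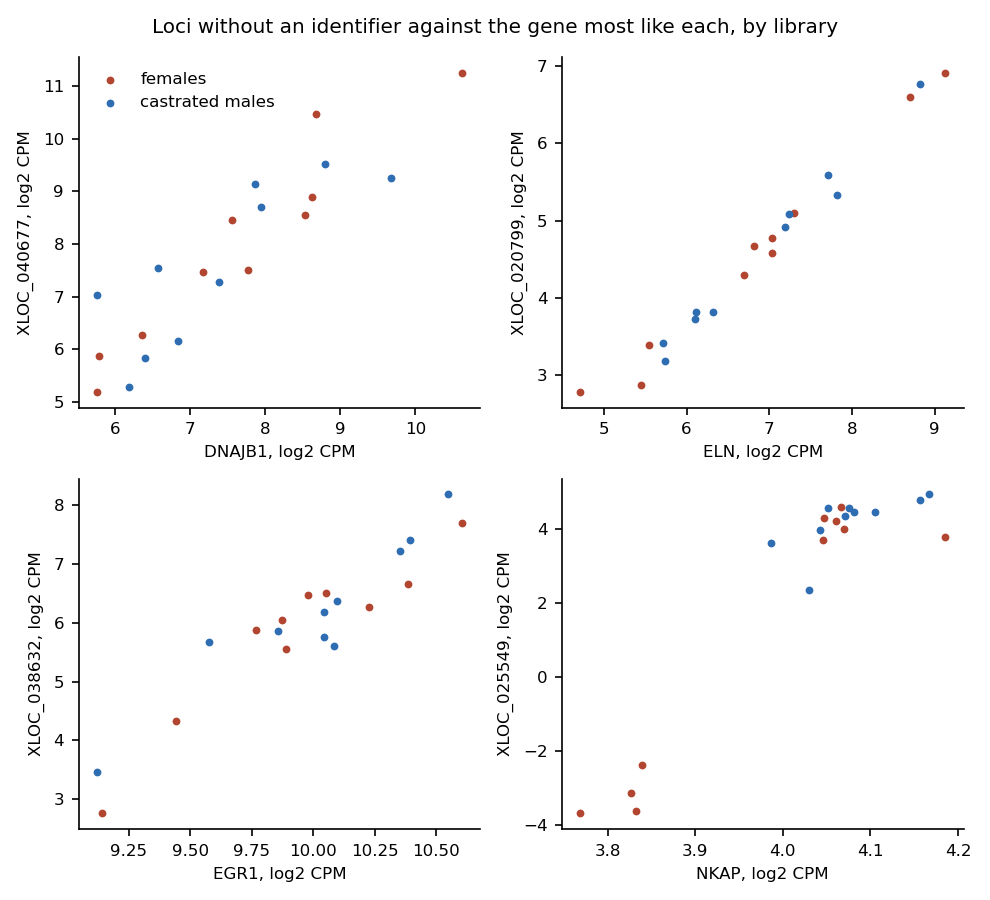
log2 CPM (TMM-scaled, prior count 2) of 4 unnamed loci against the named gene most like each, 1 point per library, females in red and castrated males in blue. XLOC_020799 follows ELN along a line, XLOC_040677 follows DNAJB1 with more scatter, and XLOC_025549 falls into 2 sets, its 4 low females having the 4 lowest values of NKAP.

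The RNA splicing and speckle list had 18 followers (1.33%, identified loci 0.937%), and 22 without castrated male 1. XLOC_029279 (r = 0.88) and XLOC_010386 (r = 0.82) were closest over all 20. Female 7 was the highest library of both, at 11.8 and 23.5 CPM. XLOC_008641, which had 17 isoforms, was most like the regulators NR2C2, a nuclear receptor (r = 0.96), and KMT2C, a histone methyltransferase (r = 0.94). XLOC_028170 was the follower of the mitochondrially encoded list (0.0737%, identified loci 0.118%), at r = 0.79. It was highest in castrated males 9 (24.1 CPM), 10 (22.1 CPM) and 8 (17.3 CPM), which had mitochondrial shares of 21.08%, 26.34% and 19.24%. Female 3, at a share of 21.73%, had 9.06 CPM of it, and without castrated male 1 that list had 5 followers. The proliferation list was followed by XLOC_003233 at r = 0.73 (0.0737%, identified loci 0.388%). The clock list was followed by XLOC_038565 at r = 0.71 (0.0737%, identified loci 0.183%). No unnamed locus reached 0.7 with the cholesterol synthesis list, which 0.0754% of the identified loci did. The identified loci include the genes of that list.

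The closest match of any unnamed locus to a named gene was with ELN, which encodes elastin, the protein of elastic fibres. XLOC_020141 followed it at r = 1 (rounded) and XLOC_020799 at r = 0.99 (Spearman 0.99 each, n = 20). XLOC_020141 spanned 16.3 to 218 CPM among the females (median 54.4) and 22.3 to 177 CPM among the castrated males (median 49.1). XLOC_020799 spanned 7.08 to 121 CPM and 8.36 to 107 CPM in the same order, and ELN from 27.4 to 561 CPM over all 20. Female 2 was highest for all 3, followed by castrated male 3 and female 3.

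The number of XLOC_020799 is next to that of ELN, and XLOC_020141 lies 659 numbers away between METTL27 and LIMK1. In the Sscrofa11.1 order of protein-coding genes METTL27 is 2 steps before ELN and LIMK1 is next after it. Both unnamed loci thus had the neighbourhood of ELN by number or by flanking gene. Numbers far apart can therefore lie near the same gene. Their ratios to ELN were steady, with a median of 0.453 (0.379 to 0.596) for XLOC_020141 and 0.207 (0.167 to 0.262) for XLOC_020799. COL8A1, a collagen of vessel walls, and LTBP2, a protein of elastic microfibrils, were the next genes for both, each at r = 0.93.

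Some other unnamed loci followed a gene near them by number, as some identified loci did. Within 5 numbers, 34 pairs of an unnamed and an identified locus reached r = 0.8. At a distance of 1 number it was 2% of 650 pairs, and 1.36% of the 4031 pairs of 2 identified loci at that distance. At 2 numbers it was 1.45% and 0.784%, and at 3 to 5 numbers 0.649% and 0.595%. At 6 to 10 numbers it was 0.224% and 0.528%. The median r at a distance of 1 number was 0.12 and 0.14. Whether these shares differ was not tested. The following pairs were chosen after their values were seen. XLOC_003641 (15.2 CPM) is next to NTRK2, a neurotrophin receptor, and followed it at r = 0.96, and XLOC_007967 (5.77 CPM) is next to SLCO2A1, a prostaglandin transporter, at r = 0.93. XLOC_027088 (68 CPM) is next to HSPG2, the basement membrane proteoglycan perlecan, at r = 0.92, and XLOC_039989, of the matrix group, was at r = 0.97 with the identified locus beside it, which has no matched symbol. XLOC_018075 (68.5 CPM) lies 2 numbers from NDUFV1 at r = 0.86.

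Sex was not part of the rule, so it could be tested. Counts were fitted with edgeR's quasi-likelihood test over all 21587 loci that passed its filter on low counts, which 1356 of the 1357 unnamed loci did, all but XLOC_014310. With all 20 libraries 0 unnamed loci had a Benjamini-Hochberg adjusted p under 0.05, as did 0% of all loci tested. At an unadjusted p under 0.05 there were 41 unnamed loci (3.02%), against 4.33% of all loci tested. Of these 21 were higher in females, where 2.28% of all loci were, and 20 lower, where 2.05% were. Without female 10 and castrated male 10 the counts were 0 of 1356 adjusted, where 0.0834% of all loci passed, and 52 unadjusted (3.83%), against 4.86%. Of the 52, 32 were higher in females (background 2.91%) and 20 lower (background 1.94%). In both comparisons the unnamed loci gave no larger share of small p-values than the table as a whole. DESeq2 passed 1 unnamed locus in each of these comparisons, where 0.0278% and 0.104% of all loci passed.

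The locus that DESeq2 called was XLOC_016422. It spanned 5.98 to 48.9 CPM among the females (median 17.9) and 4.06 to 15.3 CPM among the castrated males (median 6.41), so 6 of 10 females were above every castrated male and the others overlapped. The log2 difference, females minus castrated males, was 1.44 (SE 0.327), with an edgeR adjusted p of 0.79 and a DESeq2 adjusted p of 0.0326. Without both libraries numbered 10 the adjusted p-values were 0.679 by edgeR and 0.0493 by DESeq2. XLOC_007055 had the next smallest p in that direction, with 4.81 to 7.56 CPM among the females and 3.67 to 5.85 CPM among the castrated males, a log2 difference of 0.42 (SE 0.117) and an edgeR adjusted p of 1. XLOC_033572 had a larger difference of 1.49 (SE 0.435, edgeR adjusted p = 1) with 8 of 10 females above the castrated median. Age was not balanced between the sexes, as 4 females and 1 castrated male were of 249 days or more. With age in the model the difference was 0.97 for XLOC_033572 and 1.16 for XLOC_016422, each with an edgeR adjusted p of 1.

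In the other direction XLOC_016314 was at 5.91 to 14.2 CPM among the females and 7.49 to 17.8 CPM among the castrated males, a log2 difference of -0.48 (SE 0.171, edgeR adjusted p = 1). XLOC_002340 differed by -0.27 (SE 0.0979) and XLOC_038619 by -0.66 (SE 0.249), each with an edgeR adjusted p of 1. The difference of XLOC_038619 was -0.34 without castrated male 1. XLOC_038619 was at 83.6 CPM in castrated male 1 and at 11.2 to 33.4 CPM elsewhere, and was most like the MHC class II genes SLA-DMB (r = 0.91) and HLA-DRA (r = 0.88). With both libraries numbered 10 left out, XLOC_037757 (-0.63, SE 0.212) and XLOC_029082 (-0.38, SE 0.134) had small p-values, again with an edgeR adjusted p of 1. In simulated data with all 20 libraries, 100 differences of 1 on the log2 scale and 100 of 0.58 were planted. Of these 89% and 42% were recovered. With that many true differences the adjusted threshold is easier to pass than in the real counts, where 0 of 21587 loci passed. No rate was computed for unnamed loci alone, whose median residual SD was 0.348 against 0.274 for identified loci. The rates thus cannot tell how many such differences of unnamed loci were missed.

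Age, 233 to 250 days, was fitted as a slope per 10 days with sex in the model. By edgeR 0 of 1356 unnamed loci passed, as did 0% of all loci. At an unadjusted p under 0.05 there were 62 (4.57%), against 5.51% of all loci. Of these 23 had a slope above 0 (background 1.78%) and 39 below 0 (background 3.73%). DESeq2 passed 2 where 0.0232% of all loci passed. The slope was above 0 in 57.4% of the unnamed loci and in 50.2% of all loci, and the median slopes were 0.03 and 0.

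XLOC_001334, which lies between MYZAP and TCF12, had the smallest p, with a slope of -0.84 (SE 0.148) per 10 days, an edgeR adjusted p of 0.135 and a DESeq2 adjusted p of 0.00023. Without female 10 and castrated male 10, whose labels are in doubt, the slope was -0.77 and the edgeR adjusted p 0.602. It was at 12 to 19.6 CPM in the 5 animals of 233 to 237 days and at 5.32 to 9.84 CPM in the 5 animals of 249 or 250 days, which did not overlap. Animals between those ages lay from 8.18 to 15.2 CPM. XLOC_022623, between ANGPT1 and LRP12, had a slope of 1.18 (SE 0.244), with adjusted p-values of 0.575 by edgeR and 0.00813 by DESeq2. Without those 2 libraries the slope of XLOC_022623 was 1.11 and the edgeR adjusted p 0.852. It was at 2.05 to 6.03 CPM in the 5 youngest and at 6.53 CPM or more in the 5 oldest, and from 1.87 to 9.33 CPM in the animals between. These 2 age groups were formed for description after the slopes were known. The other loci with the smallest p-values, XLOC_030315, XLOC_025857, XLOC_038934 and XLOC_003714, had slopes of 1.02, 0.81, -0.43 and -0.75 and edgeR adjusted p-values of 0.848 to 0.859.

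The minimum itself has no special place in the data. Just inside it stood XLOC_024823 at 5.0017, XLOC_029051 at 5.0042 and XLOC_036890 at 5.0073 CPM, and just outside XLOC_022550 at 4.9998, XLOC_012160 at 4.9992 and XLOC_009165 at 4.9982 CPM. Several of these borderline loci had close companions among named genes, such as XLOC_029051 with GABPB1, a subunit of an ETS-family factor, at r = 0.88, and XLOC_036890 with the kinase gene FES at r = 0.87.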

How the data were processed

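Polyadenylated RNA of backfat from 20 pigs was sequenced in pairs of 100-base reads. Per the submitters' processing notes, reads were processed with Cufflinks 2.1.1, TopHat2 2.0.8 and Bowtie2 2.1.0.0 on the build Sscrofa10.2, and DESeq2 is named too. The authors deposited raw counts per locus and Cufflinks FPKM values per locus and per isoform, each as 1 table of all animals. Which tool counted the reads, whether it used strand and what it did with reads of several matching places is not stated in the labels.

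Each column was matched to an animal by its label, and animals were numbered in deposit order. CPM used the sum of all loci. Isoforms were tied to a locus where their FPKM summed to the locus FPKM within 0.1%. Sex and age were tested with edgeR 4.0.16 in R 4.3.3 (TMM scaling, filterByExpr, quasi-likelihood, Benjamini-Hochberg threshold 0.05), with DESeq2 1.42.0 as an alternative. The fits were tested on simulated data. Correlations used log2 CPM (prior count 2) with sex means removed, in Python 3.11.15. Symbols were matched through the Ensembl gene identifier. Synonyms and gene order came from RefSeq (Sscrofa11.1), and no coordinates are given because the builds differ. Depth was 25754778 to 51248122 counts, and limits from a count of 0 cover counting error only.

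The loci and the gene lists were chosen with earlier results of these data known. Named were the loci of highest mean CPM (10) and FPKM (5), highest (6) and lowest (4) residual SD, widest range from under 0.5 to 10 CPM or more (6) and most isoforms (4). Also named were the 3 of smallest p per test and direction, the 3 on each side of the minimum, up to 2 per list and the 5 closest pairs, each with up to 3 most alike genes and the most opposite gene. Alternatives were DESeq2, upper-quartile scaling, no filter, age in the model, other prior counts, FPKM, Spearman correlation, another minimum, and leaving out castrated male 1 or both libraries numbered 10.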

Additional observations from a re-analysis of the deposited data

Results flagged for a closer look

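Among 152 groups of 10 animals (76 loci named by the rule, both sexes), 21 had a highest or lowest library farther from the others than Dixon's 95% critical value allows. Chance gives about 1 in 20, and loci named for a wide range were bound to be among them. Of the 21, 5 were set by castrated male 1.

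Castrated male 1 was lowest at XLOC_039988 (288 CPM, others 657 to 1097), XLOC_038503 (52.4, others 95 to 204), XLOC_035831 (7.66, others 13.6 to 28.3) and XLOC_026544 (0.62, others 2.4 to 8.04). It was highest at XLOC_006046 (22.1 CPM, others 5.85 to 10.5). Female 7 was highest at XLOC_034233 (398 CPM, others 40.1 to 121), XLOC_008052 (33.9, others 12.5 to 22.2), XLOC_025857 (23.6, others 3.48 to 9.76) and XLOC_029051 (10.8, others 3.12 to 6.19). Castrated male 10, whose label is in doubt, was lowest at XLOC_010031 (393 CPM, others 773 to 1755), XLOC_025549 (4.78, others 11.9 to 31.3) and XLOC_036770 (3.11, others 4.89 to 7.18), and highest at XLOC_003233 (86.5, others 57.6 to 78.4).

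Castrated male 5 was highest at XLOC_038271 (539 CPM, others 398 to 438) and XLOC_014310 (50.9, others at most 0.49) and lowest at XLOC_001334 (5.32, others 8.18 to 14.7). XLOC_011840 was highest in castrated male 4 at 66.2 CPM, with the others at most 3.92. XLOC_004584 had 0 counts in female 3 (others 9.63 to 29.4 CPM) and 0 in castrated male 2 (others 11.3 to 33 CPM). XLOC_003839 was lowest in female 9 at 239.7 CPM (others 388 to 566) and XLOC_039066 in female 8 at 0.0254 CPM (others 4 to 14.6).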

How the results depend on the processing

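With DESeq2 in place of edgeR, 1 unnamed locus passed the sex test, 1 passed it without the libraries numbered 10 and 2 passed the age test, against 0 in each; no other setting run passed any. For the abundance of unnamed loci, a minimum of 10 CPM left 772. On log2(FPKM + 0.1), 2 of the correlations of named loci with genes or with each other changed sign, XLOC_016314 with YWHAZ (r = -0.22) and XLOC_003233 with EFCAB14 (r = -0.18), 110 moved and 190 did not; the cause was not tested. With Spearman correlation 55 moved and 247 did not. Without castrated male 1, 14 moved. The median residual SD stayed between 0.332 and 0.35 under 4 alternatives, and the share of loci with a lone isoform was 68.4% (identified loci 23.1%) when isoforms under a mean of 0.5 FPKM were dropped. In alternatives chosen after seeing the data, 10 loci went from under 0.5 to 10 CPM or more without castrated male 1 and 12 without both libraries numbered 10, and 243 reached r = 0.7 with a list without the latter, against 172. At 1 CPM a library gives 25.8 to 51.2 counts, so values far under 1 CPM rest on few reads. No paired analysis was possible because the labels carry no replicate numbers, and the numbers used here only follow deposit order.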
